A study of Homo sapiens with 25 samples.

Results

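Lysosomes are the acidic organelles in which cells break down lipids, glycans and proteins. Their luminal hydrolases and proteases are made at the endoplasmic reticulum and sorted to the organelle, where a proton pump, the V-ATPase, keeps the lumen acidic and heavily glycosylated membrane proteins line the limiting membrane. Here the RIP-seq levels of 9 mRNAs that encode lysosomal proteins were followed in every library. The genes were taken by name from the 63086 genes in the count tables: LIPA, HEXA and GLA (lipid and glycolipid hydrolases), CTSB and CTSD (proteases), NPC1 and NPC2 (cholesterol transport), and LAMP1 and LAMP2 (membrane glycoproteins). LIPA was chosen because the study discusses it, and the other 8 because they are widely used lysosomal proteins. The choice was made with earlier results of these data known. Counts of these genes beside the share of all tested genes are therefore descriptions only.

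In RIP-seq, an RNA-binding protein is pulled out of a cell lysate on beads, and the RNA bound to it is purified and sequenced. IGF2BP1, the protein captured here, is an RNA-binding protein with a pair of RRM domains and 4 KH domains that controls the stability, translation and localisation of its target mRNAs. All mCherry lines were HCT116 cells, a human colorectal carcinoma line, with Tet-OsTIR1 and with IGF2BP2 and IGF2BP3 knocked out. They carried mCherry-IGF2BP1 as wild-type, S181E, Y396E or RQ (R167Q, R168Q, R174Q, R178Q), and received either PBS (control) or 500 µM sodium arsenite, an oxidative stressor, for 2 h. Each line was a lentivirus-transduced population sorted within a narrow mCherry gate rather than a single clone, and the replicate dishes were plated and grown independently. Each line and treatment had 3 libraries, except RQ in arsenite with 2, and parental HCT116 cells without the fusion gave 1 library per treatment as bead background. The paper calls the background cells nonengineered, so they may differ from the mCherry lines in the knockouts as well as in the fusion. The comparisons ask whether the mutations, 2 of which mimic phosphorylation, alter which mRNAs come down with IGF2BP1, with and without stress. With a single population per line, an effect of a mutation cannot be told apart from another difference between the populations. The tests measure the spread between dishes.

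The 23 mCherry libraries held 22246381 to 60273548 counts. The parental arsenite library held 18942497 counts, whereas the parental control library held 1238013, so that 1 count there equals 0.745 CPM. Levels are given in CPM, the count scaled to library size with TMM factors, and they are compared between genes only per kilobase of exon. Labels were checked on IGF2BP1 itself, which had 0 counts in both parental libraries and 37.1 to 122 CPM in the mCherry libraries. Its level was higher in RQ than in wild-type libraries by 0.72 ± 0.12 (log2 fold change ± SE) in control (adjusted p = 0.0011) and by 1.02 ± 0.13 in arsenite (adjusted p = 0.00012), and in Y396E by 0.46 ± 0.12 (adjusted p = 0.0065) and 0.45 ± 0.12 (adjusted p = 0.007), in edgeR's quasi-likelihood test. The part of these differences in the results below was not tested. IGF2BP2 and IGF2BP3 mRNA was still counted, at 135 to 302 and 147 to 428 CPM, and counts over whole genes do not check a knockout. Of the epithelial markers, EPCAM, CDH1, KRT8 and KRT18 were present in every mCherry library, whereas KRT20, VIL1 and CDX1 were at most 2.21 CPM, with CDX1 at 0. Markers of other cell types summed to 2.07 to 15.1 CPM, most of it COL1A1.

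Sequence elements recognised by IGF2BP1 have been described around ACACCC and GGAC, the latter read by its KH34 domains. On the strand of the mRNA, ACACCC was found in the annotated exons of 4 of the 9 genes (CTSB, CTSD, NPC2 and LAMP2), against 56.8% of the 8734 genes tested. GGAC was found in all 9, against 99.6%, and its density ran from 1.22 per kb in LAMP2 to 7.44 per kb in GLA, with a median of 3.5 per kb over the tested genes. LIPA holds no ACACCC and 10 GGAC, or 3.28 per kb. Its 3 sites in the 3′ UTR of the canonical transcript (hg38, minus strand, exon 10) are shown because the study discusses LIPA. The ACACCC site of CTSD (exon 9, 3′ UTR, minus strand) is shown for contrast. Capitals mark the motif, and a match is a description of the sequence, not a binding site.
LIPA, chr10:89214805-89214834: tcagtgaaagctGGACttgagctgtgtacc
LIPA, chr10:89214479-89214508: ttgcccttcataGGACaaagtaatatatgt
LIPA, chr10:89213714-89213743: atactgtccggtGGACaaaatgacaattga
CTSD, chr11:1753402-1753431: cccctcccacacACACCCacacactcgccc

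Many lysosomal genes carry the E-box core CACGTG, which lies within the CLEAR element bound by the transcription factor TFEB. RefSeq promoter windows (250 bases before to 50 after the start site, GRCh38.p14) matched 6 of the 9 genes, and the others were not checked. CACGTG, which reads the same on both strands, was present in 2 of these 6, LAMP1 (6 sites) and CTSD (1 site). Of 27305 genes with a window, 8.77% had it. The longer TCACGTGA was present only in LAMP1, against 1.18% of genes. LAMP1 and CTSD were the 2 mRNAs with the highest arsenite-to-control ratios among the members tested (below), so the site of CTSD and 2 of those of LAMP1 are shown with the core in capitals. RIP-seq does not measure transcription, and nothing is drawn from these matches about TFEB.
LAMP1, chr13:113297051-113297080, plus strand: tgggtccagggtCACGTGccgctgcgggtc
LAMP1, chr13:113297199-113297228, plus strand: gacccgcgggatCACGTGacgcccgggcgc
CTSD, chr11:1763957-1763986, minus strand: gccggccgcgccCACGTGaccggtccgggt

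The genes lie on 8 chromosomes: LIPA at chr10:89213569-89414557, HEXA at chr15:72340924-72376014, GLA at chrX:101397453-101407925, CTSB at chr8:11842524-11869533, CTSD at chr11:1752752-1764573, NPC1 at chr18:23531442-23586506, NPC2 at chr14:74476192-74493347, LAMP1 at chr13:113297239-113323672 and LAMP2 at chrX:120426148-120469365 (hg38, all on the minus strand except LAMP1). Counting was strand-specific over all annotated exons. Reads that overlap exons of more than 1 gene are left out by the counter's default, and 1160 of the 2521 exonic bases of CTSD are shared with the readthrough gene ENSG00000250644, which held at most 23 counts in any library, so CTSD was counted only on the remainder. For HEXA the shared part was 9.59% and for NPC2 3.01%, and the other 6 genes shared none.

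**Figure D1:**
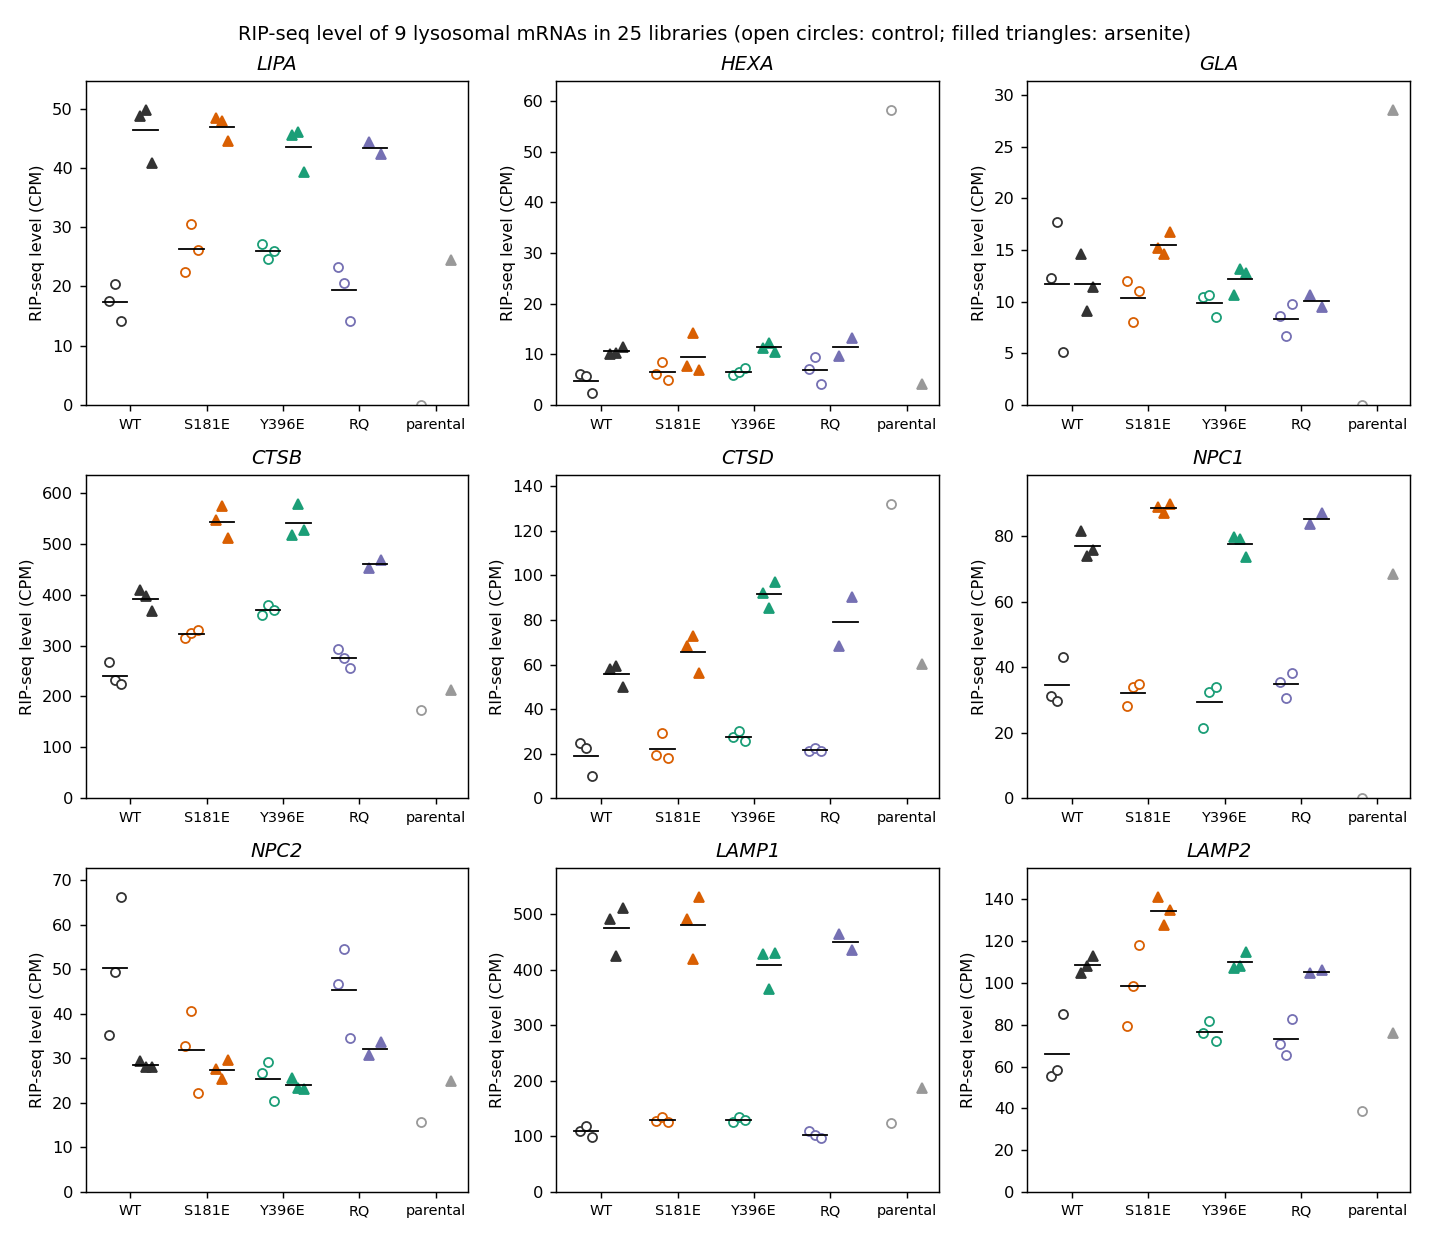
RIP-seq level in CPM (y axis, linear from 0, own scale per gene) of the 9 mRNAs in all 25 libraries, by line (x axis); each point is 1 library, open circles are control, filled triangles arsenite, and lines mark group means. For LAMP1, all arsenite libraries of the mCherry lines (366 to 530 CPM) lie above all control libraries (97 to 135 CPM), and for GLA control and arsenite overlap in every mCherry line except S181E.

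Per kilobase of exon, LAMP1 had the highest level in wild-type control libraries at 40.3 CPM per kb, followed by CTSB with 30.8 and NPC2 with 21, and HEXA the lowest at 0.73. In wild-type arsenite libraries, LAMP1 again came first with 176 CPM per kb and CTSB second with 50.1. The parental libraries put these levels in context. In control, 3 of the 9 mRNAs were at least 4-fold over the parental library in wild-type cells (NPC1 at least 15.5-fold, LIPA at least 7.77-fold, GLA at least 5.24-fold), and each had 0 counts in the shallow parental library, where a floor of 3 counts per library was used. Scaled by total counts, these bounds were 7.12-, 3.61- and 2.46-fold, so that NPC1 alone stayed above the mark. Of all tested genes, 46.6% passed the mark with TMM factors. In arsenite no member passed it, against 7.56% of all tested genes. There LAMP1 was 2.54-fold, HEXA 2.52-fold, LIPA 1.9-fold and CTSB 1.84-fold over the parental library, LAMP2, NPC2 and NPC1 were 1.43-, 1.15- and 1.12-fold, CTSD was 0.928-fold and GLA 0.409-fold. With the deeper parental arsenite library as background for the control libraries too, no member reached 4-fold, and the highest was NPC2 at 2.03-fold. Each parental group is 1 library, so these ratios have no test and their floors cover counting error only.

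LIPA encodes lysosomal acid lipase, which hydrolyses cholesteryl esters and triglycerides delivered by lipoproteins. In control, its level was 17.6, 20.4 and 14.1 CPM in the wild-type libraries, 22.4, 30.5 and 26.1 in S181E, 27.1, 24.7 and 26 in Y396E, and 23.2, 20.6 and 14.2 in RQ. All S181E and Y396E libraries lay above all wild-type libraries, whereas those of RQ overlapped them. In arsenite, the wild-type libraries stood at 48.7, 49.7 and 40.8 CPM, S181E at 48.4, 47.9 and 44.5, Y396E at 45.5, 46 and 39.3, and RQ at 44.4 and 42.3. Every arsenite library of the mCherry lines lay above each of their control libraries. Among the arsenite groups, RQ lay just below S181E without overlap, and all other pairs overlapped. The parental libraries gave 0 CPM in control (0 counts, floor 2.24 CPM) and 24.5 CPM in arsenite (499 counts). Ordered by mean, the control groups ran from wild-type (17.4 ± 3.18, SD, n = 3) over RQ (19.3 ± 4.66, n = 3) and Y396E (25.9 ± 1.2, n = 3) to S181E (26.3 ± 4.06, n = 3). The arsenite groups followed from RQ (43.4 ± 1.46, n = 2) over Y396E (43.6 ± 3.71, n = 3) and wild-type (46.4 ± 4.85, n = 3) to S181E (46.9 ± 2.09, n = 3). Neighbours in this order overlapped except RQ and Y396E in control, and S181E in control and RQ in arsenite.

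Upon arsenite treatment, the RIP-seq level of 6 of the 8 members tested rose in all 4 lines: LAMP1, CTSD, LIPA, NPC1, LAMP2 and CTSB. A gene was called when edgeR's quasi-likelihood test gave a Benjamini-Hochberg adjusted p under 0.05 and the change exceeded 20%. In each line, these 6 were the members called higher. The share of all tested genes called higher was 32.1% in wild-type, 32.9% in S181E, 31.3% in Y396E and 30.2% in RQ. The share called higher in all 4 lines at once is not given. NPC2 was called lower in wild-type and RQ, where 35.3 and 35.2% of all tested genes were called lower, and not in S181E or Y396E, where 35.0 and 33.9% were. GLA was called in no line, but was called as higher in S181E when only the compared groups were fitted (0.58 ± 0.19, adjusted p = 0.017). HEXA did not pass the expression filter (above 10 CPM in 11.5 or more of 23 mCherry libraries) and is described from a fit with a lower filter. The median log2 fold change of the 8 members was 0.89 in wild-type, 0.77 in S181E, 0.63 in Y396E and 0.88 in RQ, beside medians of -0.05, -0.02, -0.02 and -0.06 over all tested genes. RNA-Seq of the lysates was not analysed here. More of an mRNA in the lysate, bound to IGF2BP1 or held by the beads therefore cannot be told apart. Parental control and arsenite libraries held 0 and 68.6 CPM of NPC1, 0 and 24.5 of LIPA, and 38.7 and 76.2 of LAMP2. They held 124 and 187 of LAMP1, 174 and 213 of CTSB, and, in the other direction, 132 and 60.1 of CTSD. The part of this background in the result was not tested. The summed CPM of the 7 epithelial markers rose too, from 526 to 950 in control to 1220 to 1950 in arsenite libraries of the mCherry lines. Its part in the result was not tested either.

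LAMP1, a membrane glycoprotein that makes up much of the lysosomal surface, moved most among the members tested in wild-type, S181E and RQ cells. Its wild-type control libraries held 109, 118 and 99 CPM and its wild-type arsenite libraries 491, 425 and 511. The groups were far apart, with a log2 fold change of 2.08 ± 0.11 (4.23-fold, adjusted p = 2.3e-13). The change was 1.87 ± 0.10 in S181E (adjusted p = 8.8e-13), 1.64 ± 0.10 in Y396E (adjusted p = 9.6e-12) and 2.07 ± 0.11 in RQ (adjusted p = 8.9e-13). The parental libraries held 124 CPM in control and 187 in arsenite, so the wild-type level was 0.874-fold of the parental level in control and 2.54-fold in arsenite.

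LAMP2, the related glycoprotein that serves as receptor of chaperone-mediated autophagy, rose less. Its wild-type libraries held 55.5, 58.1 and 85 CPM in control and 105, 108 and 113 in arsenite. These groups did not overlap, and the change was 0.67 ± 0.14 (adjusted p = 0.00016). In S181E, Y396E and RQ it was 0.43, 0.50 and 0.47, with adjusted p-values of 0.0079, 0.0027 and 0.0087. When scaling used only the 1802 genes that did not exceed the parental level in either treatment, which moved the median of all tested genes to between -0.37 and -0.27, the calls in these 3 mutants were lost, at 0.09, 0.16 and 0.24. Without control replicate 1 the S181E call was also lost, at 0.29, and in the test of a change above 20% those in S181E and RQ were (adjusted p = 0.067 and 0.053). The parental libraries held 38.7 CPM of LAMP2 in control and 76.2 in arsenite, and the wild-type arsenite level was 1.43-fold of the latter.

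CTSD and CTSB, an aspartic and a cysteine protease of the lumen, rose by different amounts. CTSD stood at 24.7, 22.6 and 10.2 CPM in the wild-type control libraries and at 58, 59.3 and 50 in arsenite. The change was 1.48 ± 0.22 (2.78-fold, adjusted p = 3.1e-06) in wild-type, 1.53 ± 0.22 in S181E, 1.71 ± 0.21 in Y396E and 1.81 ± 0.23 in RQ, with adjusted p-values of 1.5e-06, 3.2e-07 and 5e-07. The parental control library held 132 CPM of CTSD (177 counts), above every mCherry library, and the parental arsenite library 60.1. CTSB stood at 267, 232 and 224 CPM in wild-type control and 410, 397 and 368 in wild-type arsenite libraries. Its change was 0.66 ± 0.08 (1.57-fold, adjusted p = 4.1e-07), and 0.72, 0.53 and 0.67 in S181E, Y396E and RQ, all called. On the scaling to parental-level genes, the CTSB call in Y396E was lost at 0.19.

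LIPA rose by 1.37 ± 0.17 in wild-type (2.58-fold, adjusted p = 2.1e-07), 0.81 ± 0.16 in S181E (adjusted p = 0.00014), 0.73 ± 0.16 in Y396E (adjusted p = 0.0004) and 1.09 ± 0.18 in RQ (adjusted p = 1.4e-05). Whether this response differed between each mutant line and wild-type was tested by the interaction of mutant and treatment. For LIPA this was -0.56 ± 0.23 in S181E (adjusted p = 0.34), -0.64 ± 0.23 in Y396E (adjusted p = 0.16) and -0.28 ± 0.25 in RQ (adjusted p = 0.75). No member's interaction was called in any mutant, against 0.298, 2.04 and 0.0687% of all tested genes in S181E, Y396E and RQ. With the replicate number as a block, LIPA (-0.65 ± 0.20, adjusted p = 0.048) and LAMP1 (-0.44 ± 0.13, adjusted p = 0.044) were called for Y396E, and with total counts LAMP1 was (-0.58 ± 0.16, adjusted p = 0.033). Deviations from group means in same-numbered Y396E and wild-type libraries correlated at 0.0142, 0.264 and 0.295 in control (replicates 1 to 3). In arsenite these correlations were 0.086, 0.188 and 0.213. They do not settle whether the numbers pair these libraries. The intervals of 2 SE around the LIPA values ran from -1.02 to -0.09 in S181E, -1.10 to -0.17 in Y396E and -0.77 to 0.21 in RQ.

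NPC1, a membrane protein, and NPC2, a soluble carrier, hand cholesterol from the lumen to the limiting membrane, and their mRNAs went in opposite directions in wild-type cells. NPC1 stood at 31.2, 29.6 and 43.1 CPM in control and 81.5, 74 and 75.8 in arsenite, a change of 1.11 ± 0.15 (2.16-fold, adjusted p = 6.6e-07). In S181E, Y396E and RQ it rose by 1.43, 1.39 and 1.23. The parental libraries held 0 CPM of NPC1 in control and 68.6 in arsenite, and the wild-type arsenite level was 1.12-fold of the latter. NPC2 stood at 35.3, 49.4 and 66.1 CPM in wild-type control and 29.3, 28.1 and 28 in wild-type arsenite libraries. The control libraries were spread widely and the arsenite libraries lay close together below them, at a change of -0.86 ± 0.22 (adjusted p = 0.0013). In RQ the change was -0.56 ± 0.24 (adjusted p = 0.045), a call that did not hold under DESeq2 size factors, total counts, filterByExpr, all biotypes, only the compared groups or the test of a change above 20% (adjusted p 0.053 to 0.099), or without any single one of 4 libraries (RQ control replicate 1 or 2, RQ arsenite replicate 1 or 2, adjusted p 0.085 to 0.18). In S181E it was -0.24 ± 0.22 (adjusted p = 0.33) and was called as lower when scaled on genes that did not exceed the parental level (-0.56 ± 0.20, adjusted p = 0.015), and in Y396E -0.10 ± 0.22 (adjusted p = 0.69). Its parental levels were 15.6 CPM in control and 24.8 in arsenite, near the arsenite libraries of all lines.

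GLA (alpha-galactosidase A) and HEXA (alpha subunit of beta-hexosaminidase) are glycolipid hydrolases. GLA stood at 12.3, 17.7 and 5.15 CPM in wild-type control and 14.6, 9.08 and 11.4 in wild-type arsenite libraries, with a change of -0.05 ± 0.28 (adjusted p = 0.87). Its change was 0.56 in S181E (adjusted p = 0.081), 0.29 in Y396E (adjusted p = 0.37) and 0.20 in RQ (adjusted p = 0.58), and its highest level, 28.5 CPM, was in the parental arsenite library. HEXA stood at 6.04, 5.62 and 2.44 CPM in wild-type control and 10.1, 10.3 and 11.5 in wild-type arsenite libraries. With edgeR's filterByExpr, which kept 13515 genes, HEXA rose by 1.19 ± 0.33 in wild-type (adjusted p = 0.0036) and 0.78 ± 0.32 in Y396E (adjusted p = 0.045), and was not called in S181E (0.56, adjusted p = 0.15) or RQ (0.71, adjusted p = 0.099). Its parental control level of 58.1 CPM (78 counts) exceeded all other libraries.

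**Figure D2:**
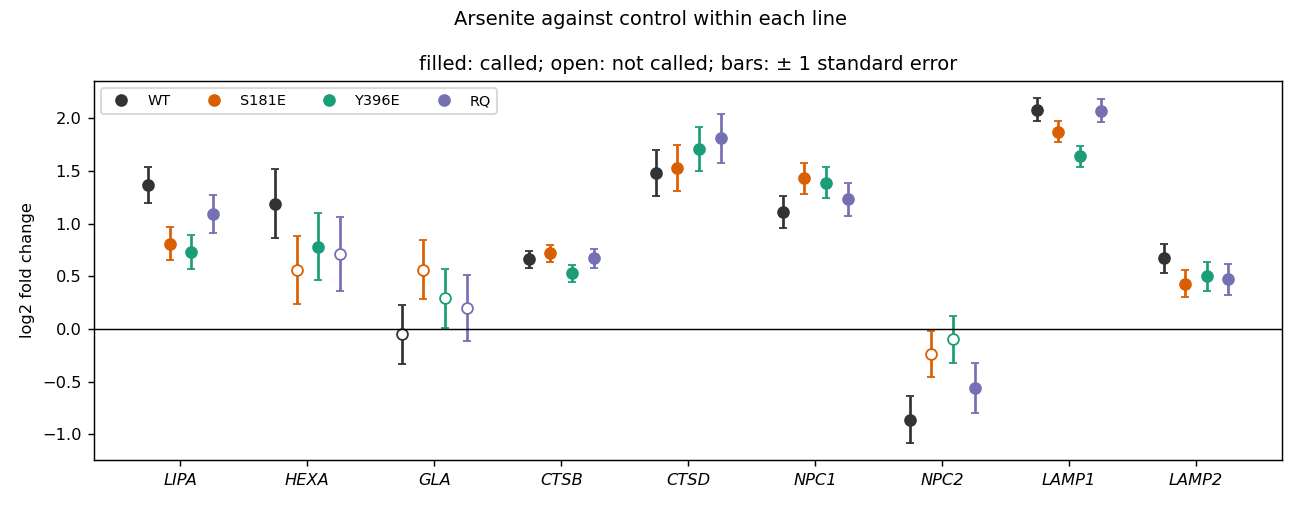
Log2 fold change of arsenite over control (y axis) for the 9 mRNAs (x axis) in each line; bars are 1 standard error of the edgeR fit, filled points are called, and HEXA comes from the fit with filterByExpr. LAMP1 lies highest in 3 of the 4 lines, and NPC2 is the only member below 0 in all lines.

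Each mutant was then compared with wild-type within a treatment. In control, S181E libraries held more LIPA, LAMP2 and CTSB and less NPC2, 3 members called higher and 1 lower of 8, beside 10.0% of all tested genes called higher and 10.1% lower. Y396E libraries held more LIPA and CTSB and less NPC2, 2 higher and 1 lower, beside 13.2 and 15.6%. No member was called in RQ, where 3.22% of all tested genes were called higher and 3.57% lower. The median log2 fold change of the members was 0.22 in S181E, 0.24 in Y396E and 0.08 in RQ, against 0.00, 0.01 and 0.01 over all tested genes. The 3 comparisons share the wild-type libraries.

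LIPA was 0.60 ± 0.17 higher in S181E (1.51-fold, adjusted p = 0.014) and 0.58 ± 0.17 higher in Y396E (1.49-fold, adjusted p = 0.012) than in wild-type control libraries. In RQ the difference was 0.17 ± 0.17 (adjusted p = 0.59), with an interval of 2 SE from -0.16 to 0.51. Both calls were lost without wild-type control replicate 3, the library with the lowest LIPA level and the smallest total count of the mCherry libraries (0.47, adjusted p = 0.06, and 0.45, adjusted p = 0.061), when only the libraries of the compared groups were fitted (adjusted p = 0.19 and 0.084), and when a change above 20% was itself tested (adjusted p = 0.091 and 0.069). The S181E call was also lost without its replicate 2 (0.50, adjusted p = 0.055).

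CTSB was the member called in both phosphomimetic mutants under both treatments. In control, its level was 314, 325 and 330 CPM in S181E, 359, 379 and 370 in Y396E, and 294, 276 and 256 in RQ, against 267, 232 and 224 in wild-type libraries. S181E and Y396E lay entirely above wild-type, and RQ overlapped it. The differences were 0.42 ± 0.08 in S181E (1.34-fold, adjusted p = 0.001), 0.62 ± 0.08 in Y396E (1.54-fold, adjusted p = 9e-06) and 0.20 ± 0.08 in RQ (adjusted p = 0.16). LAMP2 was 0.58 ± 0.14 higher in S181E (adjusted p = 0.0046), although its libraries (79.4, 98.6 and 118 CPM) overlapped those of wild-type (55.5, 58.1 and 85). LAMP1 differed from wild-type by 0.24 ± 0.10 in S181E (adjusted p = 0.099) and 0.26 ± 0.10 in Y396E (adjusted p = 0.063), with no overlap of the libraries and no call. With total counts as scaling, both were called (0.45, adjusted p = 0.0042, and 0.57, adjusted p = 0.00038), and the Y396E difference also with all biotypes (0.28, adjusted p = 0.038) and with filterByExpr (0.30, adjusted p = 0.043). LAMP2 was called in Y396E with total counts (0.55, adjusted p = 0.001). The S181E calls of CTSB and LAMP2 were lost when only the compared groups were fitted (adjusted p = 0.066 and 0.11) and when a change above 20% was tested (adjusted p = 0.096 and 0.054).

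NPC2 was lower in S181E by -0.65 ± 0.22 (adjusted p = 0.035) and in Y396E by -0.98 ± 0.22 (0.509-fold, adjusted p = 0.0018). Y396E libraries (26.6, 29.2 and 20.3 CPM) lay below all wild-type libraries, and those of S181E (32.8, 40.6 and 22.1) overlapped them. The S181E call was lost without S181E replicate 1 or 3, without wild-type replicate 2 or 3, with total counts as scaling, with only the compared groups fitted, or when a change above 20% was tested (adjusted p 0.058 to 0.19). NPC1, CTSD and GLA were called in no mutant in control, at log2 fold changes from -0.49 (GLA in RQ) to 0.52 (CTSD in Y396E, adjusted p = 0.078). CTSD in Y396E lay entirely above wild-type, and was called under DESeq2's Wald test (adjusted p = 0.047), without a filter on low counts (0.56, adjusted p = 0.018), with the replicate block (0.54, adjusted p = 0.022) and with total counts (0.82, adjusted p = 0.0078). HEXA, in the fit with the lower filter, differed by 0.47, 0.50 and 0.56 in S181E, Y396E and RQ, none of them called (adjusted p 0.30 to 0.37).

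In arsenite, 1 member was called higher in S181E (CTSB) and 2 in Y396E (CTSB and CTSD), beside 3.07 and 15.5% of all tested genes. None was called lower, beside 5.16 and 17.9%. In RQ no member was called in either direction, beside 0.286 and 0.252% of all tested genes called higher and lower. The median over the members was 0.24 in S181E, 0.04 in Y396E and 0.04 in RQ, against 0.03, 0.04 and -0.01 over all tested genes. CTSB stood at 546, 573 and 511 CPM in S181E and 517, 578 and 526 in Y396E, above the 410, 397 and 368 of wild-type. The differences were 0.49 ± 0.08 (adjusted p = 0.00039) and 0.50 ± 0.08 (adjusted p = 0.00011), and the S181E call was lost when a change above 20% was tested (adjusted p = 0.053). RQ libraries, at 453 and 467 CPM, also lay above wild-type, with a difference of 0.22 ± 0.09 that was not called (adjusted p = 0.4). LAMP1 differed from wild-type by -0.19 ± 0.10 in Y396E (adjusted p = 0.15), and was called as lower when scaled on genes that did not exceed the parental level (-0.42 ± 0.11, adjusted p = 0.0049).

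CTSD in Y396E libraries was 92.1, 85.2 and 97.2 CPM in arsenite, above wild-type at 58, 59.3 and 50, a difference of 0.75 ± 0.21 (1.68-fold, adjusted p = 0.0082). In RQ, at 68.1 and 90.1 CPM, it differed by 0.49 ± 0.23 (adjusted p = 0.47), and a fit of only these groups called it (0.49 ± 0.11, adjusted p = 0.0018). The same-numbered S181E and wild-type arsenite libraries deviated together, and with the replicate number as a block LAMP2 was called as a second member in S181E (0.34 ± 0.11, adjusted p = 0.05 after rounding) in place of 0.33 ± 0.13 (adjusted p = 0.15) without it. It was also called with total counts (0.47, adjusted p = 0.013) and with only the compared groups fitted (0.31, adjusted p = 0.0042). The difference in LIPA from wild-type was 0.04 ± 0.16 in S181E, -0.06 ± 0.16 in Y396E and -0.11 ± 0.18 in RQ, none of them called (adjusted p 0.81 to 0.93). Their intervals of 2 SE ran from -0.28 to 0.36, -0.37 to 0.26 and -0.47 to 0.25.

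**Figure D3:**
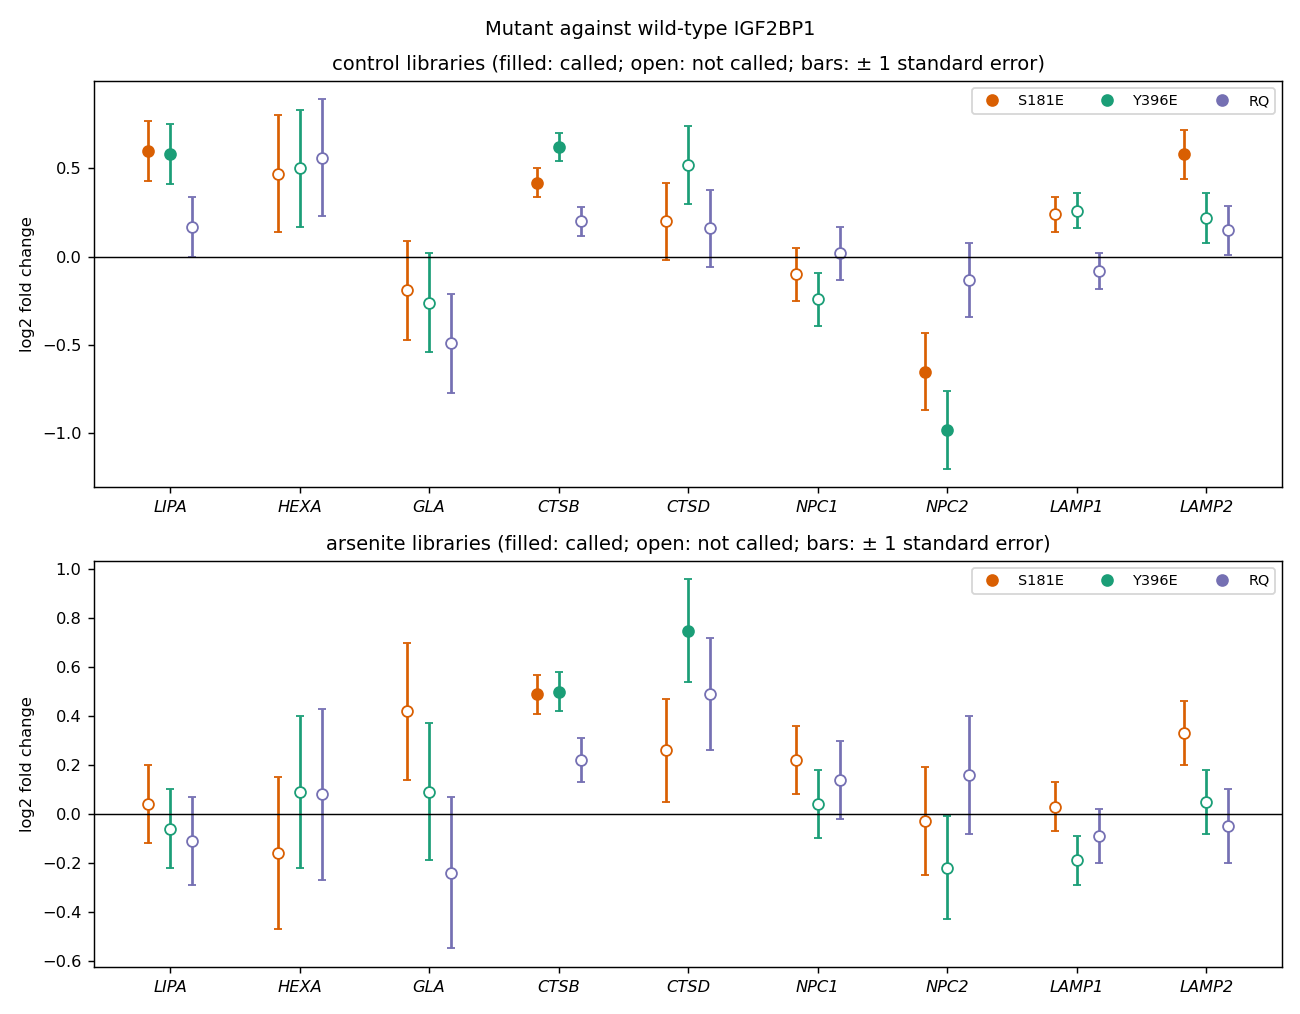
Log2 fold change of each mutant over wild-type (y axis) for the 9 mRNAs (x axis), in control (top) and arsenite (bottom); bars are 1 standard error of the edgeR fit, filled points are called, and HEXA comes from the fit with filterByExpr. LIPA is called in S181E and Y396E in control (0.60 and 0.58) and lies near 0 in arsenite, and CTSB is called in both mutants in both panels.

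To place the 9 mRNAs among others of the organelle, 84 further lysosomal genes were listed, of which 65 were tested. The list was also chosen with earlier results of these data known, so its shares carry no test. Upon arsenite treatment, 30 rose and 16 fell in wild-type (46.2 and 24.6% of the list, beside 32.1 and 35.3% of all tested genes), 38 and 17 in S181E (58.5 and 26.2%, beside 32.9 and 35.0%), 35 and 15 in Y396E (53.8 and 23.1%, beside 31.3 and 33.9%), and 32 and 16 in RQ (49.2 and 24.6%, beside 30.2 and 35.2%). Their median log2 fold changes were 0.38, 0.58, 0.51 and 0.37, beside the medians over all tested genes given above. Scaled on genes that did not exceed the parental level, 26 rose and 20 fell in wild-type, 28 and 21 in S181E, 24 and 20 in Y396E, and 29 and 19 in RQ. The medians over all tested genes were then -0.28, -0.35, -0.37 and -0.27, and the shares of all tested genes called are not given. By role in wild-type cells, 12 of 20 hydrolases rose and 3 fell, 5 of 7 proteases rose and none fell, 7 of 15 V-ATPase genes rose and 3 fell, and 5 of 12 membrane proteins and activators rose and 3 fell. Of 5 sorting genes, 1 rose and 2 fell. Of 6 regulators, which are LAMTOR1 to LAMTOR5 of the Ragulator complex and the TFEB relative TFE3, 5 fell and none rose.

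Among the called genes of this list whose groups did not overlap, GAA (acid alpha-glucosidase) had the highest change in wild-type, from 47.9 ± 7.8 to 246 ± 15.2 CPM (SD, n = 3; 2.31 ± 0.15, adjusted p = 7.3e-12), and also in Y396E (2.08) and RQ (2.61). IDS (iduronate-2-sulfatase) had the lowest, from 65 ± 6.03 to 20.5 ± 0.761 CPM in wild-type (-1.71 ± 0.15, adjusted p = 9.1e-10), and was lowest in S181E (-1.62) and Y396E (-1.36) too. In RQ the lowest was LAMTOR5 (-1.45). In wild-type, GAA was 0.335-fold of the parental library in control and 2.97-fold in arsenite. These ratios were 2.36 and 6.73 for IDS, and 0.845 and 0.351 for LAMTOR5.

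**Figure D4:**
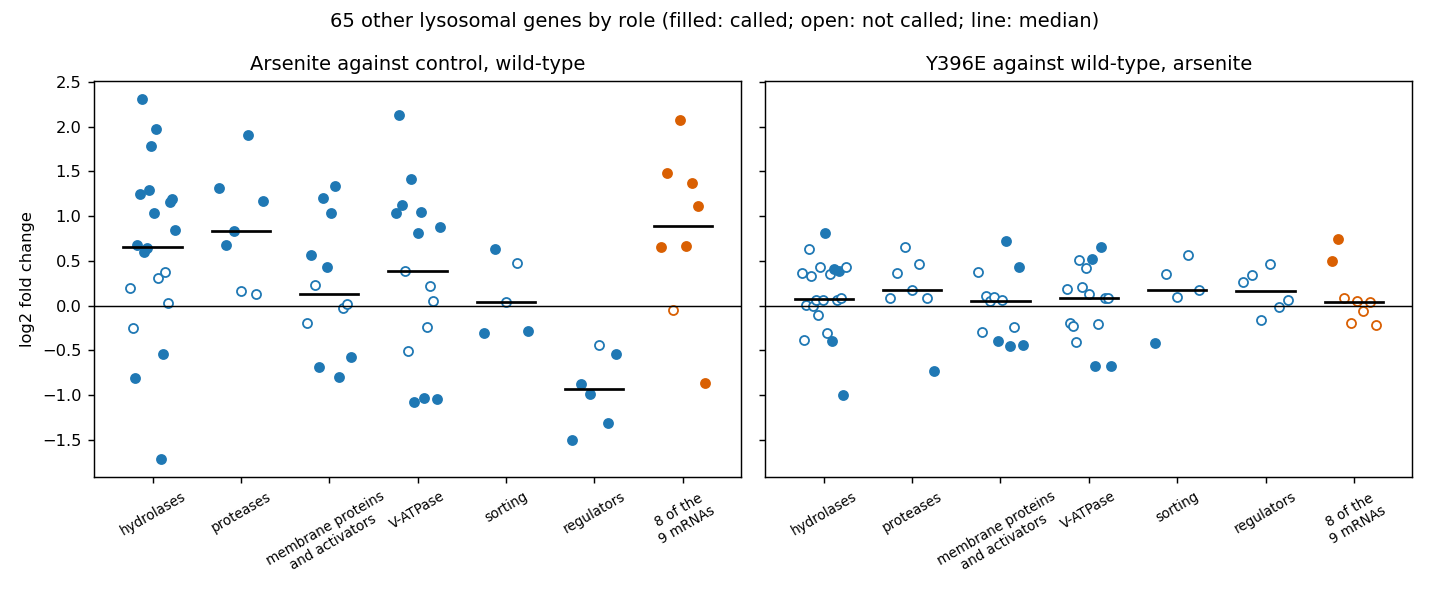
Log2 fold change (y axis) of 65 other lysosomal genes by role and, in orange, of 8 of the 9 mRNAs (x axis), for arsenite over control in wild-type (left) and Y396E over wild-type in arsenite (right); filled points are called and lines mark medians. Hydrolases and proteases lie mostly above 0 on the left (medians 0.66 and 0.83), regulators below (median -0.93), and medians on the right lie between 0.04 and 0.18.

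Between mutants and wild-type, fewer of the list were called. In control 7 were lower and 3 higher in S181E (10.8 and 4.62%, beside 10.1 and 10.0% of all tested genes), 7 and 7 in Y396E (10.8% each, beside 15.6 and 13.2%), and 1 and 4 in RQ (1.54 and 6.15%, beside 3.57 and 3.22%). In arsenite, 5 were lower and 1 higher in S181E (7.69 and 1.54%, beside 5.16 and 3.07%), 9 and 7 in Y396E (13.8 and 10.8%, beside 17.9 and 15.5%), and none in RQ, beside 0.252 and 0.286%. The balance of directions depended on the scaling. With total counts, the median of all tested genes was 0.22 in S181E, 0.32 in Y396E and 0.13 in RQ in control. In arsenite it was 0.17 in S181E and 0.23 in Y396E. The calls lower and higher in control were then 2 and 10 in S181E, 4 and 26 in Y396E, and 0 and 7 in RQ. In arsenite they were 3 and 6 in S181E and 4 and 23 in Y396E. Scaled on genes that did not exceed the parental level, they were 5 and 2, 13 and 3, and 0 and 1 in control, and 5 and 0 in S181E and 15 and 1 in Y396E in arsenite. The shares of all tested genes called are not given for either scaling, so these counts have no background beside them. Among called genes of the list whose groups did not overlap, PLBD2, a phospholipase B-like lysosomal protein, had the lowest value in 3 of these comparisons. PLBD2 was also far above the bead background, at 15.2-fold of the parental library in wild-type control and 53.5-fold in arsenite, where no member reached 4-fold. Its arsenite libraries held 4600, 5440 and 5910 CPM in wild-type, 2550, 2390 and 2760 in S181E, and 2100, 2630 and 3080 in Y396E. Both mutants lay entirely below wild-type, by -1.03 ± 0.20 (adjusted p = 0.002) and -1.0 ± 0.20 (adjusted p = 0.00075), and in control Y396E was lower by -1.18 ± 0.21 (adjusted p = 0.00016). S181E in control, at 955, 884 and 1500 CPM, also lay below the 2010, 2180 and 2590 of wild-type. RQ in control, at 1600, 1290 and 2270 CPM, overlapped wild-type.

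The genes named next are likewise the extremes among called genes of the list whose groups did not overlap. In control, ATP6AP2, an accessory subunit of the V-ATPase, was the highest in S181E (0.75), Y396E (0.78) and RQ (0.95, adjusted p = 0.012), at 9.26 CPM in wild-type against 11.9 in the parental library. ATP6V1H, a V-ATPase subunit, was the lowest in S181E (-1.08), and was at least 5.54-fold over the parental control library in wild-type, with 0 counts there. IGF2R, a mannose 6-phosphate receptor, was the lowest in RQ (-0.57, adjusted p = 0.046), at 0.446-fold of the parental library in wild-type control. In arsenite the highest in Y396E was GUSB, beta-glucuronidase (0.81, adjusted p = 0.014). Its level was 35 CPM in Y396E and 20.4 in wild-type, against 41 in the parental arsenite library, so wild-type was at 0.498-fold of it.

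The 5 tested genes whose levels followed that of LIPA most closely over the 23 mCherry libraries were TIA1, TUBG1, G2E3, GYG1 and COPB2, with Pearson's r of 0.96 to 0.97 on log2 CPM. Among the members LAMP1 came closest (r = 0.93, rank 101 of 8733 genes), followed by CTSD and CTSB (0.90 each), NPC1 (0.82), LAMP2 (0.77), GLA (0.46) and NPC2 (-0.60). The libraries fall into a control and an arsenite cluster, which these values span. Within the 12 control libraries the 5 genes had r of 0.79 to 0.90 with LIPA, and within the 11 arsenite libraries -0.06 to 0.76. For the members these values were 0.86 and -0.10 for LAMP1, 0.64 and -0.28 for CTSD, 0.81 and 0.08 for CTSB, -0.49 and 0.27 for NPC1, 0.30 and 0.16 for LAMP2, 0.18 in both for GLA, and -0.52 and 0.06 for NPC2, so that 4 of the 7 changed sign between the treatments. These correlations describe the libraries and carry no test.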

How the data were processed

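The authors captured mCherry-IGF2BP1 with RFP-Trap beads, removed rRNA, sequenced directional single-read libraries, aligned them to hg38 with STAR 2.7.11b and counted exonic reads by strand with featureCounts (Subread 2.0.6). The counts the authors deposited are raw, for 63086 genes. Of the gene IDs, 61547 matched GENCODE v44 with version, 994 with another version and 545 not at all (at most 0.0346% of counts). The protein-coding genes numbered 20044.

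From these counts, edgeR (version 4.0.16, on R 4.3.3 with limma 3.58.1) gave TMM factors, CPM and quasi-likelihood tests, and DESeq2 (version 1.42.0) served as an alternative. Python 3.11.15 with pandas (2.3.3) and matplotlib (3.10.9) made the tables and plots. Protein-coding genes above 10 CPM in at least 11.5 of 23 mCherry libraries were tested (8734 genes) in 1 model of 8 groups without covariates, with Benjamini-Hochberg adjustment per comparison. SE is the log2 fold change divided by the root of F. Printed levels use TMM over all 25 libraries. The parental libraries entered no test. The scripts were tested on simulated data. Identical counts were found in 0 pairs of libraries.

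The members and the list of 84 genes were chosen with earlier results of these data known. Besides the members and IGF2BP1, IGF2BP2 and IGF2BP3, the rule named the list gene with the lowest and highest log2 fold change among called genes without overlap in each comparison, and the 5 genes nearest to LIPA by Pearson's r on log2(CPM + 0.5). PLBD2's parental ratios were added after they were seen. Some results of single list genes are not reported here. Alternatives covered scaling, test, filter, biotypes, groups fitted, replicate block and each library left out.

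Whether replicate numbers pair libraries was checked by the correlation of deviations from group means. All 3 exceeded 0.1 only for S181E against wild-type in arsenite (0.283 to 0.392), and the pairing rests on this check, not on the labels. Comparisons with RQ in arsenite have only 2 such values, 0.143 and 0.21 against wild-type. For the other comparisons the check does not exclude pairing.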

Additional observations from a re-analysis of the deposited data

How the results depend on the processing

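With each setting changed alone, no call between arsenite and control changed direction, and no left-out library removed a LIPA call there. LIPA against wild-type in control kept its size but lost its call in the test of a change above 20% and with only the compared groups fitted (0.60 in S181E, 0.58 in Y396E under both). Leaving out 1 library gave 0.47 to 0.73 in S181E and 0.45 to 0.71 in Y396E. In arsenite, where LIPA was not called, its sign turned in S181E with scaling on parental-level genes (-0.04) and when 1 library was left out (-0.05 to 0.09), and in Y396E with total counts (0.13). The number of members called in S181E control was 0 in the test of a change above 20% and 0 with only the compared groups, and 2 to 4 with 1 library left out. In Y396E control it was 6 with total counts, where the median over all tested genes was 0.32, above the log2 threshold of 0.263. For RQ control it was 1 with total counts (CTSB) and 0 to 1 with 1 library left out, and for RQ arsenite 1 with only the compared groups (CTSD). In S181E arsenite it was 0 in the test of a change above 20%, and 2 with total counts, only the compared groups or the replicate block. For the Y396E interaction, 1 member was called with total counts (LAMP1) and 2 with the replicate block (LIPA at -0.65, adjusted p = 0.048 in edgeR, and LAMP1). Whether the numbers pair these libraries was not settled. The block also called CTSD in Y396E control (0.54, adjusted p = 0.022 in edgeR) and LAMP2 in S181E arsenite, and changed no other call of a member. The lysosomal list had 30 calls in Y396E control with total counts and 22 with the block, 8 in RQ control with the block, and 27 in Y396E arsenite with total counts. The members at least 4-fold over the parental library in wild-type control were 1 with total counts (NPC1) and 0 with the parental arsenite library as background. The shares of all tested genes called under these settings are not given, so the counts of calls have no background beside them. The causes of the changes between settings were not tested. In RQ arsenite, where 1 library was left out, the lone sample was assumed to vary like the other groups. The parental control library, with 742207 protein-coding counts, limits every ratio to it.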
